A study of Mus musculus with 6 samples.

Results

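The enterocyte nutrient uptake genes described here are 10 genes through which absorptive cells of the small intestine take up sugars, peptides, amino acids, sterols, fatty acids and retinol and pass fat on. They were chosen by name from among the 54838 genes listed in each count file: Slc5a1, Slc2a2, Slc2a5, Slc15a1, Slc6a19, Npc1l1, Fabp1, Fabp2, Rbp2 and Mttp. All 10 were counted in every library and passed the filter on low counts, which left 15998 genes to test. RNA was measured in 3 cultures treated with INT-777, a synthetic bile acid derivative that activates the bile acid receptor TGR5, at 30 µM, and in 3 treated with its solvent DMSO. The cells of both groups were intestinal cells sorted for high green fluorescence from mice of the strain B6.129P2-Lgr5tm1(cre/ERT2)Cle/J, which carry the reporter and an inducible Cre in the stem cell gene Lgr5. On each of 3 days, cells of 4 mice were pooled, set in Matrigel in medium with the Notch ligand peptide JAG-1 (1 µM) and the GSK3 inhibitor CHIR99021 (3 µM), and treated from 4 h later. The labels give 12 h of treatment and the design text 16 h, and the ages of the mice are not given in the sources used here. Each group thus had 1 library from each day, here called days 1, 2 and 3 after the replicate numbers.

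Absorption is the work of mature enterocytes on the villus, and stem cells at the crypt base divide to replace them. Sugars and amino acids cross the brush border on carriers that use the sodium gradient or passive diffusion, and short peptides enter with protons. Fatty acids and retinol are held inside the cell by small binding proteins of one family, are esterified, and leave as chylomicrons, which form when lipid is loaded onto apolipoprotein B.

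The libraries held between 45682340 and 47905087 assigned read pairs, and levels are given in CPM, counts per 1000000 assigned pairs after TMM scaling. Stem cell markers were present, with 14 of 15 at a mean of at least 1 CPM and a summed level of 3118, 3082 and 2724 CPM with DMSO on days 1, 2 and 3 and 2695, 2657 and 2240 with INT-777. By the edgeR test described below, 0 of these 15 rose and 1 fell without the day as a term, against 0.688% and 0.763% of all tested genes, and 2 rose and 9 fell with it, against 11.1% and 10.3%. Of 14 Paneth markers 13 had negative log2 changes with INT-777, against 49.3% of all tested genes. Of these markers 0 rose and 1 fell without the day as a term, and 0 rose and 6 fell with it, against the same shares as above. Of 30 enterocyte markers 25 were at a mean of at least 1 CPM, led by the brush border genes Vil1, Anpep and Mgam, whereas Apoa4, an apolipoprotein of mature enterocytes, lay between 0 and 0.0642 CPM. The 18 goblet markers summed to 6166, 6067 and 30065 CPM with DMSO on days 1, 2 and 3 and to 3332, 3237 and 13470 with INT-777. All 18 had negative log2 changes with INT-777 (median −0.90), 0 passed without the day as a term (2 were lower at an unadjusted p under 0.05, against 7.42% of all genes, and 1 in DESeq2, against 3.03%), and 16 were lower with it, against 10.3%. The 16 enteroendocrine markers were also highest on day 3, at 3507 CPM with DMSO and 2514 with INT-777, against 698 to 815 on the other days. The part of these markers in the values below was not tested, and in bulk RNA fewer cells of a type cannot be told apart from less RNA per cell. The 23 immune markers summed to between 4.69 and 15 CPM in both groups, with 18 of them too low to test, and were highest on day 3. The pan-leukocyte gene Ptprc lay between 0 and 0.0840 CPM on days 1 and 2 and at 1.51 (DMSO) and 1.31 CPM (INT-777) on day 3. The 10 hepatocyte and kidney markers, of which Fgb, Umod and Slc22a6 had no counts, summed to 17 to 41.4 CPM with DMSO and 9.89 to 16.3 with INT-777. Days 1 and 2 were much alike, with a biological coefficient of variation of 1.99% between their DMSO libraries and 2.71% between their INT-777 libraries, against 16.2 to 19.5% between either of them and day 3.

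Per length of exons, the 10 genes spanned more than 2 orders of magnitude, with the lipid-binding protein genes at the top and the peptide carrier at the bottom. With DMSO, Fabp1 stood at 66.8 ± 21.6 CPM per kilobase (mean and SD, n = 3) and Fabp2 at 45.5 ± 1.84, above 96.0% and 93.4% of the tested genes. The ranges of these neighbours overlapped. Slc5a1 at 21.2 ± 3.03, Rbp2 at 20.8 ± 6.18 and Mttp at 20.4 ± 2.1 CPM per kilobase could not be ordered, since their ranges overlapped too. Npc1l1 followed at 7.6 ± 1.5 CPM per kilobase and stood apart from its neighbours. Slc2a5 (1.11 ± 0.652) and Slc6a19 (0.77 ± 0.00987) overlapped, as did Slc2a2 (0.306 ± 0.0952) and Slc15a1 (0.182 ± 0.0933 CPM per kilobase), the last above 9.25% of the tested genes. With INT-777 the order of the means was the same but for Slc5a1, at place 5 instead of place 3, with 14.8 ± 1.75 CPM per kilobase. Since Slc5a1, Rbp2 and Mttp could not be ordered with DMSO, its place 3 there is one of means only. Lengths are those of all annotated exons of a gene merged, so genes with rare long exons appear lower than they are.

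**Figure D1:**
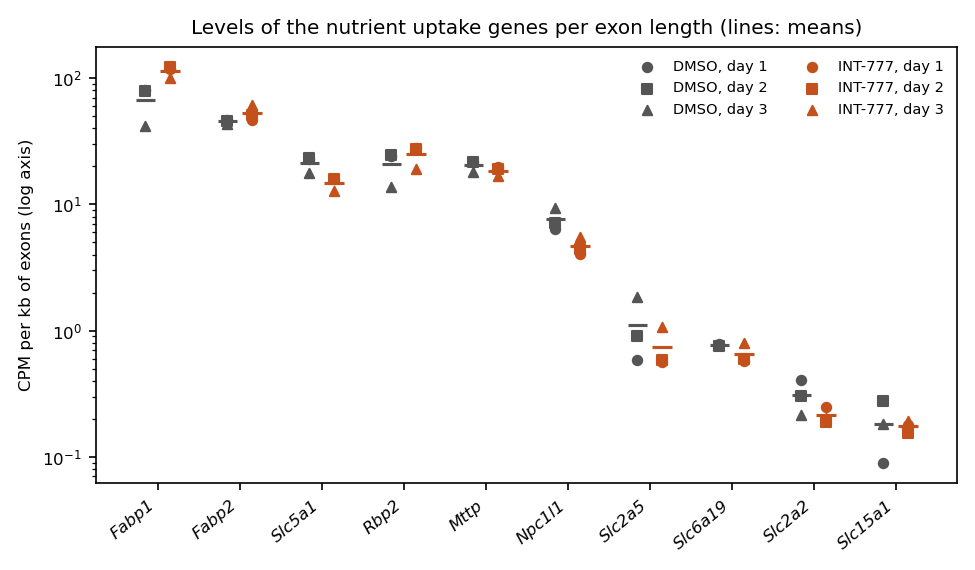
Level of each gene in each library in CPM per kilobase of merged exons (vertical log axis), DMSO in grey and INT-777 in orange, with a marker shape per day and a line at each mean. Fabp1 and Fabp2 lead in both groups, and Slc5a1, Rbp2, Mttp and Npc1l1 follow. The means of Slc6a19, Slc2a2 and Slc15a1 lie below 1 in both groups, and that of Slc2a5 does with INT-777.

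The question was whether these genes respond in stem cell cultures when TGR5 is stimulated, and they did not move as one group. The mean level of the 3 sugar carriers and of the sterol carrier was lower with INT-777, and that of the 3 binding proteins for fatty acids and retinol was higher, with the tests as follows. No gene of the 10 passed the edgeR quasi-likelihood test without the day as a term (Benjamini-Hochberg adjusted p under 0.05 over all tested genes), a threshold that 0.688% of all tested genes passed upwards and 0.763% downwards. At an unadjusted p under 0.05 there were 1 higher (Fabp1) and 2 lower (Slc5a1 and Npc1l1), against 8.96% and 7.42% of all tested genes. The labels pair the libraries by day, and with the day as a block 1 gene rose (Rbp2) and 4 fell (Slc5a1, Slc2a5, Npc1l1 and Mttp), against 11.1% and 10.3% of all genes. DESeq2 without the block called 1 higher (Fabp1) and 2 lower (Slc5a1 and Npc1l1), against 2.61% and 3.03%, and limma-voom without the block called 0, against 0.613% and 0.725%. With the block DESeq2 called 2 higher (Fabp1 and Rbp2) and 3 lower (Slc5a1, Npc1l1 and Mttp), against 8.23% and 8.6%. The median log2 change (INT-777 minus DMSO) of the 10 was −0.19, with 7 values below 0, beside 0.0031 for all tested genes, 49.3% of which were below 0. On all 3 days 7 of the 10 genes differed in the same direction (Fabp1 and Rbp2 higher, and Slc5a1, Slc2a2, Slc2a5, Npc1l1 and Mttp lower), against 52% of all tested genes. Summed over the 10 genes the level was 377, 383 and 316 CPM with DMSO on days 1, 2 and 3, and 349, 353 and 323 with INT-777.

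**Figure D2:**
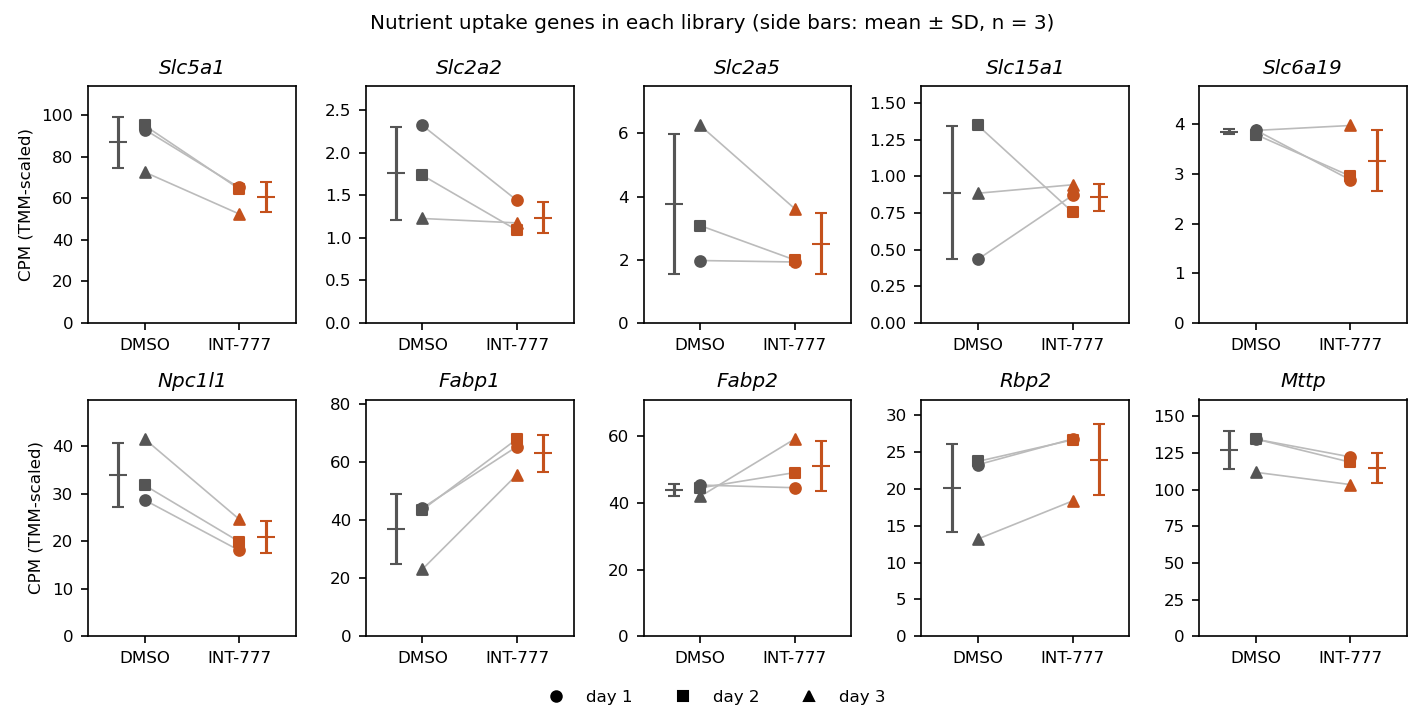
TMM-scaled CPM of each gene in every library (vertical axes from 0), with lines joining the DMSO and INT-777 libraries of a day and side bars for mean ± SD (n = 3). In the panels of Slc5a1 and Npc1l1 all INT-777 libraries lie below all DMSO libraries, and in that of Fabp1 all lie above.

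Among the sugar carriers the clearest difference was that of Slc5a1, which encodes SGLT1, the sodium-coupled carrier that takes up glucose and galactose at the brush border (chromosome 5, 33104219 to 33162870, GRCm38). On days 1, 2 and 3 it stood at 93.1, 95 and 72.6 CPM with DMSO and at 65.2, 64.5 and 52.4 CPM with INT-777. All INT-777 libraries lay below all DMSO libraries, as 11% of tested genes did, and both day 3 libraries were the lowest of their group. The level was 1.43-fold lower with INT-777. On the log2 scale the difference of −0.52 ± 0.13 (SE) missed the threshold without the block (edgeR adjusted p = 0.121), and it passed with the block (−0.51 ± 0.04, edgeR adjusted p = 1.14e-06). The INT-777 over DMSO ratio was close to the same on each day, at 0.7, 0.679 and 0.722, with exact 95% intervals from counting error alone of 0.668 to 0.734, 0.648 to 0.711 and 0.685 to 0.761.

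The other sugar carriers of the set were far scarcer. Slc2a5 encodes GLUT5, the fructose carrier of the brush border (chromosome 4, 150119283 to 150144169). It stood at 1.98, 3.08 and 6.25 CPM with DMSO and at 1.93, 1.99 and 3.62 CPM with INT-777. Day 3 was the highest in both groups, and the groups overlapped. Its log2 change was −0.59 ± 0.47 without the block (edgeR adjusted p = 0.587) and −0.53 ± 0.15 with it, which passed (edgeR adjusted p = 0.022). The days were uneven: the ratio was 0.976 on day 1 (0.722 to 1.32 from counting error), 0.647 on day 2 and 0.578 on day 3, so on day 1 no difference was detectable at this depth. Slc2a2 encodes GLUT2, through which hexoses leave the cell towards the blood (chromosome 3, 28697903 to 28731359). With 107, 80 and 57 read pairs under DMSO and 68, 52 and 55 under INT-777, it lay between 1.09 and 2.32 CPM. Its groups overlapped only through the DMSO library of day 3, at 1.23 CPM, which was below the INT-777 library of day 1. The log2 change of −0.51 ± 0.26 did not pass without the block (edgeR adjusted p = 0.376) or with it (0.0848).

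The peptide and amino acid carriers gave no call in either fit. Slc15a1 encodes PepT1, which takes up short peptides with protons (chromosome 14, 121459621 to 121505252), and it was the scarcest of the 10 genes. It had 20, 62 and 41 read pairs with DMSO and 41, 36 and 44 with INT-777. The ratio was 2 on day 1 (1.15 to 3.61), 0.562 on day 2 (0.362 to 0.86) and 1.07 on day 3 (0.68 to 1.67), so the days did not share a direction. Its log2 change was −0.05 ± 0.38 without the block (edgeR adjusted p = 0.959) and 0.00071 ± 0.27 with it (0.999). Slc6a19 encodes B0AT1, the sodium-coupled carrier of neutral amino acids (chromosome 13, 73679745 to 73704865). Its DMSO libraries were nearly level at 3.89, 3.8 and 3.88 CPM, and its INT-777 libraries stood at 2.88, 2.96 and 3.98 CPM. The INT-777 libraries of days 1 and 2 were lower than every DMSO library and that of day 3 was the highest of all. The log2 change of −0.24 ± 0.16 did not pass (edgeR adjusted p = 0.499, and 0.218 with the block).

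Npc1l1, the carrier that takes up cholesterol at the brush border and the target of the drug ezetimibe, was lower on every day (chromosome 11, 6211013 to 6230143). Its level was 28.6, 31.7 and 41.5 CPM with DMSO and 18.1, 19.9 and 24.6 CPM with INT-777. All INT-777 libraries lay below all DMSO libraries, and day 3 was the highest in both groups. The level was 1.63-fold lower with INT-777. On the log2 scale −0.70 ± 0.17 missed the threshold without the block (edgeR adjusted p = 0.12), and −0.70 ± 0.06 passed with it (edgeR adjusted p = 6.91e-07). The ratio was 0.631, 0.627 and 0.594 on days 1, 2 and 3, with counting intervals between 0.551 and 0.688. Abcg5 and Abcg8, which together form the pump that returns sterols to the gut lumen, differed by −0.40 ± 0.12 and −0.24 ± 0.15 on the log2 scale (edgeR adjusted p = 0.174 and 0.461). With the block Abcg5 passed and Abcg8 did not (edgeR adjusted p = 0.00564 and 0.0873).

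Fabp1, Fabp2 and Rbp2 belong to one family of small binding proteins. The first encodes the liver-type and the second the intestinal-type fatty acid-binding protein, and Rbp2 encodes the cellular retinol-binding protein of enterocytes. They were the 3 genes of the set with positive log2 changes. Fabp1 (chromosome 6, 71199827 to 71205023) stood at 44.1, 43.5 and 23.1 CPM with DMSO and at 65.2, 67.8 and 55.6 CPM with INT-777. All INT-777 libraries lay above all DMSO libraries, as 13.6% of tested genes did, and the DMSO library of day 3 was the lowest by far. The level was 1.7-fold higher with INT-777, or 0.77 ± 0.26 on the log2 scale (edgeR adjusted p = 0.249). With the block it was 0.81 ± 0.17 and just missed the threshold (edgeR adjusted p = 0.051), whereas it passed in DESeq2 without the block (adjusted p = 0.0111), in DESeq2 with it (0.00291) and in limma-voom with it (0.0303). The ratio was 1.48 on day 1 (1.4 to 1.56), 1.56 on day 2 (1.47 to 1.65) and 2.4 on day 3 (2.24 to 2.58). The day 3 interval did not overlap the others, but with 1 library per group and day the difference between days has no replicate check.

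Rbp2 (chromosome 9, 98486115 to 98509781) was higher with INT-777 on each day by less. It stood at 23.3, 23.7 and 13.2 CPM with DMSO and at 26.7, 26.6 and 18.3 CPM with INT-777. Both day 3 libraries were the lowest of their group. Rbp2 overlapped between the groups because its INT-777 library of day 3 lay below the DMSO libraries of days 1 and 2. Its log2 change was 0.25 ± 0.27 without the block (edgeR adjusted p = 0.694) and 0.27 ± 0.07 with it, which passed (edgeR adjusted p = 0.0112). The ratio was 1.15, 1.12 and 1.39 on days 1, 2 and 3, and all 3 counting intervals lay above 1, from 1.03 to 1.54. Fabp2 (chromosome 3, 122895072 to 122899506) stood at 45.3, 44.4 and 41.9 CPM with DMSO and at 44.5, 49 and 59.1 CPM with INT-777. Its DMSO libraries were close together, and the INT-777 libraries ranged from within them to well above. The log2 change of 0.21 ± 0.10 did not pass (edgeR adjusted p = 0.348, and 0.14 with the block). The ratio was 0.982 on day 1, 1.1 on day 2 and 1.41 on day 3, with no difference detectable on day 1 (0.924 to 1.04).

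The promoters of these 3 genes are shown because these were the members with positive log2 changes, and that of Slc5a1 as one example of a well expressed member with a negative one; Mttp and Npc1l1 are others. Each line gives the 250 bases before the transcript start in RefSeq (GRCm38.p6), 5′ to 3′ on the plus strand, with matches to any of 5 short motifs in capitals. The RefSeq start can differ from the start of the annotated gene. The window of Rbp2 lies wholly inside the annotated gene, and the end of that of Fabp1 does. These windows may thus not be those of all transcripts counted.
Fabp1, chr6:71199629-71199878: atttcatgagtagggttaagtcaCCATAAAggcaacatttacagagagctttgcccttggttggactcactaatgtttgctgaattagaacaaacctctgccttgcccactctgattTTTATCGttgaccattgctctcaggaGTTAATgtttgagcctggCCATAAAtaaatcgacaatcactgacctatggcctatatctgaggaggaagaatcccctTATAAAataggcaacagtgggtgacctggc
Fabp2, chr3:122894822-122895071: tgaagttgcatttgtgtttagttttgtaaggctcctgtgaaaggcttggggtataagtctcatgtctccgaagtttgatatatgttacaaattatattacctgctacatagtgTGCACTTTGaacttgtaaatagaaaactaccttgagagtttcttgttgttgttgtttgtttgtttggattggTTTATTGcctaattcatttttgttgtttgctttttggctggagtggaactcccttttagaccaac
Rbp2, chr9:98490287-98490536: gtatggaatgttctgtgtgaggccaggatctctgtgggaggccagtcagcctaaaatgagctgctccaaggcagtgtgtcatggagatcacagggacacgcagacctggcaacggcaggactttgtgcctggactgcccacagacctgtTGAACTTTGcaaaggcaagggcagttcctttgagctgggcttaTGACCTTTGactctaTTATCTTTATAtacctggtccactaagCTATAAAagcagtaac
Slc5a1, chr5:33103969-33104218: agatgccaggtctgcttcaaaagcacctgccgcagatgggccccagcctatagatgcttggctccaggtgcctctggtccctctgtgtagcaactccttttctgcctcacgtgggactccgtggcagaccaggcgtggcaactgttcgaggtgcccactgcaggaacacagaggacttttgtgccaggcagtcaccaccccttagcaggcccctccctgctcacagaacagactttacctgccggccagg

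The motifs, searched on both strands, were a TATA box and 4 sites of factor families of the intestinal epithelium. The letters TTTATNG (CDX) were in the promoters of Fabp1, Fabp2 and Rbp2 and of none of the other 7 genes, and in 9.81% of all 32851 promoters of that length. The match in Rbp2, CTATAAA, contains a TATA match. These letters are rich in A and T, and the windows differ in base content. G and C made up 42.8, 35.6 and 50% of the windows of Fabp1, Fabp2 and Rbp2. They made up 47.2 to 66.4% in the other 7 genes, with a median of 52.4% over all promoters. The part of base content in these matches was not tested. The letters CAAAGNNCA (HNF4) were in those of Fabp2 and Rbp2, with 2 matches in Rbp2, and in 5.49% of all. The letters TATAAA of the TATA box began 30 bases before the start in Fabp1 and were also found in Rbp2, and in 12.4% of all promoters. In Rbp2 the pair of TATA matches overlaps other matches, one by a base with the AGATAA match and one with the CDX match. The letters AGATAA, named for GATA factors, was found in Rbp2 alone among the 10 and in 9.99% of all promoters. The letters GTTAAT were found in Fabp1 and Npc1l1 and in 6.43% of all, but the RefSeq start of Npc1l1 was not found in a GENCODE transcript of the gene, so its window may not be that of the transcripts counted. No match was found in the window of Slc5a1, Slc2a2, Slc2a5, Slc15a1, Slc6a19 or Mttp. Of these windows, those of Slc6a19 and Mttp lie wholly inside the annotated gene, and the end of that of Slc2a5 does. These matches describe the letters and do not show binding.

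Mttp, which encodes the large subunit of the transfer protein that loads triglyceride onto apolipoprotein B, had the smallest log2 change of the 6 genes above 10 CPM (chromosome 3, 138089854 to 138144968). It stood at 134, 134 and 112 CPM with DMSO and at 122, 119 and 103 CPM with INT-777, and the groups overlapped through the low day 3 libraries. The log2 change was −0.14 ± 0.09 without the block (edgeR adjusted p = 0.484) and −0.14 ± 0.04 with it, which passed (edgeR adjusted p = 0.0194). The ratio lay between 0.882 and 0.925 on the 3 days. Exons of Mttp overlap those of Trmt10a on the other strand, which stood at 19.1 ± 0.913 CPM with DMSO and 22.2 ± 0.227 with INT-777. In counts that ignore strand, pairs on the shared stretch would be ambiguous and so be left out of both genes. Apob, the apolipoprotein that Mttp serves, was abundant and differed by −0.03 ± 0.09 on the log2 scale (edgeR adjusted p = 0.892, and 0.606 with the block).

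**Figure D3:**
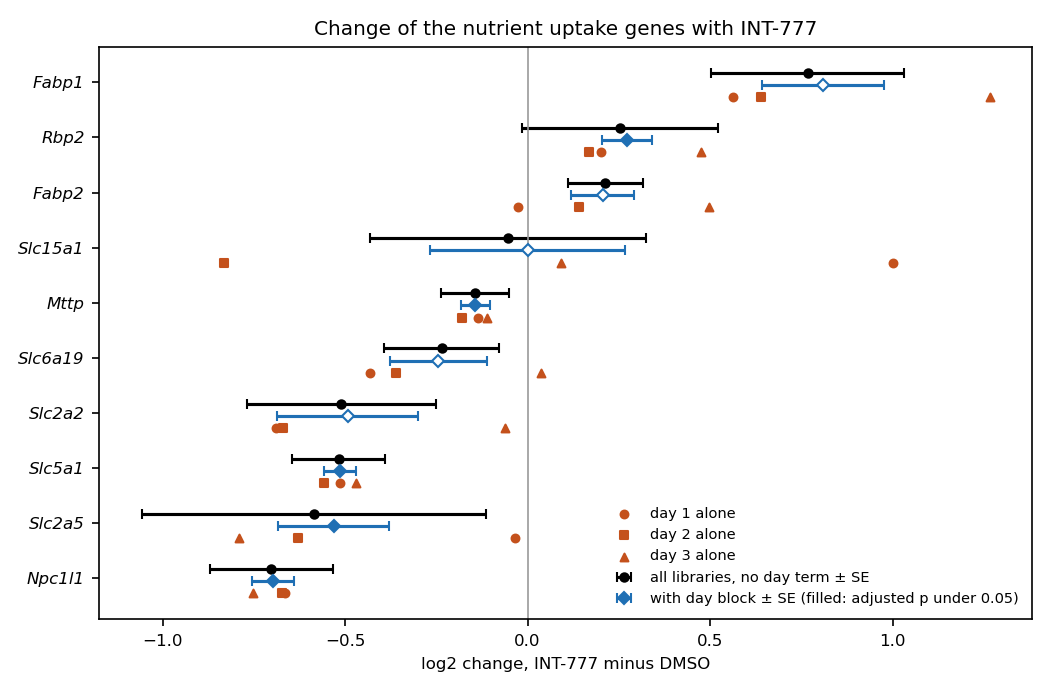
Log2 change of each gene (INT-777 minus DMSO, horizontal axis): black, all libraries without a day term ± SE; blue, with the day block ± SE, filled where the adjusted p is under 0.05; orange, each day alone. Slc5a1, Npc1l1 and Mttp have day values close together, whereas those of Slc15a1 run from −0.83 to 1.00.

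In the F-test of the day terms 5 of the 10 genes differed between days, against 20.5% of all tested genes: Rbp2 (edgeR adjusted p = 3.73e-05), Slc2a5 (0.000213), Npc1l1 (0.000249), Slc5a1 (0.000315) and Mttp (0.00236). Compared with the mean of days 1 and 2, the day 3 DMSO library was 2.47-fold higher in Slc2a5 and 1.37-fold higher in Npc1l1, and 1.78-fold lower in Rbp2, 1.3-fold lower in Slc5a1 and 1.2-fold lower in Mttp. The INT-777 library of day 3 lay on the same side in each, at 1.84-fold, 1.3-fold, 1.45-fold, 1.24-fold and 1.16-fold. Fabp1 was 1.9-fold lower on day 3 with DMSO and 1.2-fold lower with INT-777, and was not called (edgeR adjusted p = 0.26). RNA integrity was lowest on day 3 in both groups (8.7 with DMSO and 9 with INT-777, against 9.2 to 9.6), and with it as a covariate Fabp1 passed as higher and Slc5a1 and Npc1l1 as lower (edgeR adjusted p = 0.00184, 0.00282 and 0.0103), against 7.21% and 5.52% of all genes.

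Which genes passed depended on the days included. Without the DMSO library of day 3, Fabp1 (log2 0.51, edgeR adjusted p = 0.0467) passed as higher and Slc5a1 (−0.64, 0.0328) as lower in the fit without the block, against 0.647% and 1.03% of all genes. Without both day 3 libraries, 2 genes passed as higher (Fabp1 and Rbp2) and 5 as lower (Slc5a1, Slc2a2, Slc6a19, Npc1l1 and Mttp), against 13.9% and 12.9% of all genes, in a fit whose spread is that between the nearly equal days 1 and 2. Without both libraries of day 1, or of day 2, 0 of the 10 passed, in fits that called 0 genes (day 1 left out) or 2 higher and 1 lower (day 2 left out) of all genes. With the block, Fabp1 passed when any day was left out (edgeR adjusted p from 1.94e-23 to 7.87e-14). Its log2 change was 0.60 without day 3 and 0.94 and 0.89 without days 1 and 2. These fits leave little from which to estimate a gene's own spread, so their p-values rest mostly on the spread shared over genes. With all days kept, Fabp1 just missed the threshold with the block (edgeR adjusted p = 0.051). Leaving out day 1, 2 or 3 with the block gave 3, 2 and 2 of the 10 genes higher, against 10.4%, 4.79% and 12.1% of all genes, and 3, 2 and 5 lower, against 9.58%, 7.17% and 12%.

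Other genes of nutrient uptake, in 5 lists of 120 genes, moved both ways as well. Of the 103 tested, 2 rose and 1 fell without the block, against 0.688% and 0.763% of all genes. With the block 18 rose and 21 fell, 37.9% together against 21.3% of all genes. The gene that fell without the block was Slc2a6, a hexose carrier of inner membranes, from 3.26 ± 0.127 to 1.23 ± 0.307 CPM (log2 −1.41 ± 0.20, edgeR adjusted p = 0.0236). The genes that rose without the block were Slc20a1, a phosphate carrier (log2 0.30 ± 0.05, edgeR adjusted p = 0.0295), and Amn, the partner of cubilin in the vitamin B12 receptor (0.43 ± 0.07, 0.0412). Cubn, the gene of cubilin, had a log2 change of 0.60 ± 0.13 without the block and passed with it (edgeR adjusted p = 0.00284). S100g, a calcium-binding protein of calcium uptake, passed with the block in the other direction (−1.01 ± 0.20 without it, edgeR adjusted p = 0.000904 with it).

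Log2 changes ± SE and medians of these lists are from the fit without the block unless said otherwise, and adjusted p-values from that with it. The fit with the block called 11.1% of all genes higher and 10.3% lower. Of 14 other sugar genes tested, 1 was higher and 6 were lower with the block (list median −0.15). The one higher was Slc2a1, which encodes the widespread glucose carrier GLUT1 (log2 0.25 ± 0.09, edgeR adjusted p = 0.00254 with the block), and among those lower were Slc5a9, a relative of Slc5a1 (−0.58 ± 0.17, 0.0088), and Slc45a4 (−0.20 ± 0.07, 0.032). Of 23 peptide and amino acid genes 3 were higher and 6 lower with the block (median 0.03), among them the glutamine carrier Slc1a5 (0.16 ± 0.06, 0.0154), and, lower, Slc3a1 of the cystine carrier (−0.44 ± 0.11, 0.00548) and Slc43a2 (−1.09 ± 0.34, 2.59e-05). Of 31 other genes of fat uptake and chylomicrons 5 were higher and 4 lower with the block (median −0.05), against 11.1% and 10.3% of all genes. Those higher with the block were Mogat2, Dgat2 and Agpat2, enzymes of glyceride synthesis, Scarb1, a lipoprotein and sterol receptor, and the transcription factor gene Creb3l3, with log2 changes of 0.44 ± 0.10, 0.26 ± 0.08, 0.25 ± 0.07, 0.29 ± 0.07 and 0.31 ± 0.10. Dgat1 and Gpat3, also enzymes of glyceride synthesis, passed in neither fit (−0.06 ± 0.05 and 0.07 ± 0.11). Those lower with the block were Abcg5, the fatty acid activating enzyme gene Slc27a2 (−0.29 ± 0.09), Apoa1 and Sec24d. The apolipoprotein gene Apoa1 differed by −0.38 ± 0.49 without the block and −0.42 ± 0.11 with it. Sec24d, of the vesicle coat that leaves the endoplasmic reticulum, differed by −0.30 ± 0.19 and −0.28 ± 0.06. Of 12 retinoid genes 2 were higher and 2 lower with the block (median −0.07). Lrat, which esterifies the retinol that Rbp2 protein holds, had a log2 change of −0.37 ± 0.17 (0.0196 with the block), and Aldh1a1, a retinal dehydrogenase, of 0.20 ± 0.11 (0.0482). The list of vitamin and mineral genes held 7 higher and 3 lower of 23 (median 0.04), the zinc carrier Slc39a4 among those lower (−0.18 ± 0.05, 0.00724).

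**Figure D4:**
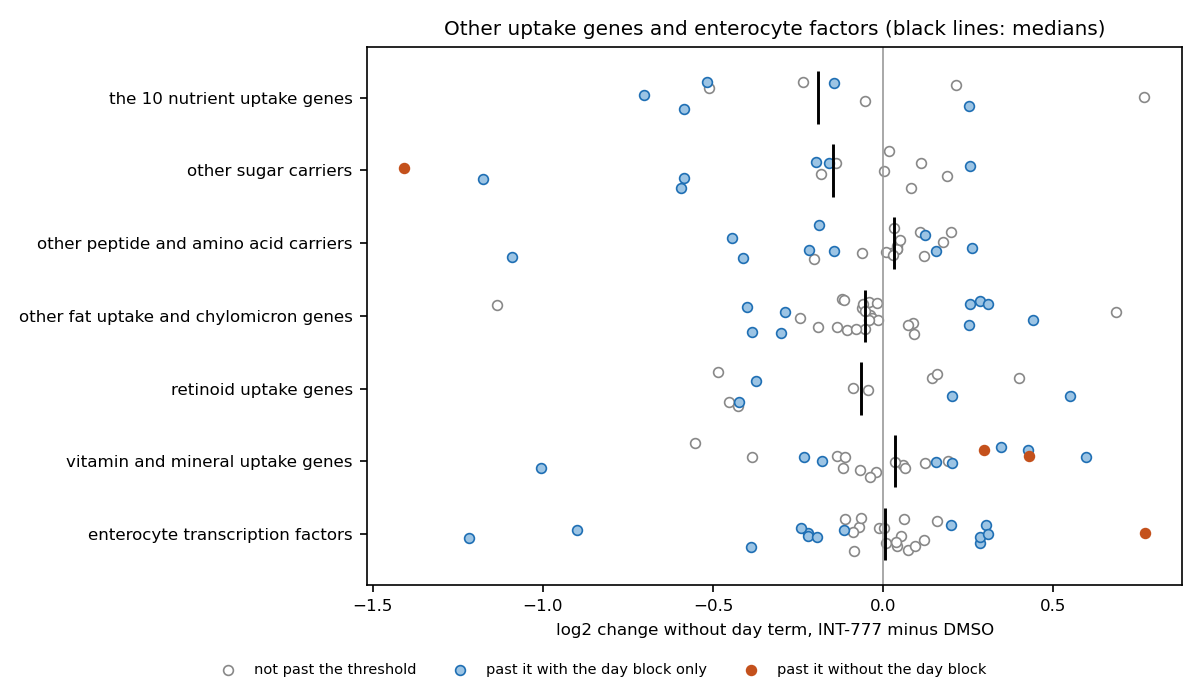
Log2 change without a day term (horizontal axis) of every tested gene in 6 further lists and of the 10 nutrient uptake genes, 1 point per gene, with a black line at each median. Filled orange points passed without the day block, blue points with it alone, and open points in neither. With the block, called genes lie on both sides of 0 in each list.

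Among 30 transcription factors of enterocytes, Pparg, a nuclear receptor for fatty acids, rose from 22.4 ± 1.88 to 38.1 ± 0.911 CPM (log2 0.77 ± 0.07, edgeR adjusted p = 0.00654). Without the block 0 fell (6 were lower at an unadjusted p under 0.05, against 7.42% of all genes, and DESeq2 called 3, against 3.03%), and with it 6 were higher and 8 lower, against 11.1% and 10.3% (list median 0.01). Hnf4a and Cdx2, main factors of intestinal identity, had log2 changes of −0.01 ± 0.08 and 0.05 ± 0.05 and passed in neither fit. Hnf4g and Maf differed by −0.22 ± 0.06 and −0.90 ± 0.19 without the block, and were lower with it (edgeR adjusted p = 0.0137 and 6.82e-06). Among enterocyte markers outside the set, the peptidase gene Anpep fell from 728 ± 156 to 230 ± 56.6 CPM (log2 −1.66 ± 0.25, edgeR adjusted p = 0.0467), and the alkaline phosphatase gene Alpi differed by 0.79 ± 0.18 on the log2 scale (0.115, and 0.000136 with the block). Of 29 such markers tested 1 rose and 3 fell without the block, against 0.688% and 0.763% of all genes, and 8 rose and 12 fell with it, against 11.1% and 10.3%. Of 11 markers of intestinal region tested 0 rose and 2 fell without the block, and 1 rose and 3 fell with it, against the same shares. Slc10a2, the bile acid carrier of the ileum, fell from 2.85 ± 0.23 to 1.38 ± 0.0986 CPM (log2 −1.04 ± 0.15, edgeR adjusted p = 0.0236). Slc51a of the same list went the other way (log2 0.77 ± 0.17, edgeR adjusted p = 0.0792, and 0.000955 with the block). Fabp6, the bile acid-binding relative of Fabp1, was between 0 and 0.13 CPM on days 1 and 2 and at 7.83 (DMSO) and 7.02 CPM (INT-777) on day 3.

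Across the 6 libraries the 10 genes followed several patterns. Log2 CPM of Fabp1 ran with that of Rbp2 (Pearson r = 0.85) and against that of Npc1l1 (−0.95), that of Slc5a1 ran with Mttp (0.90) and Slc2a2 (0.81), and that of Slc2a5 ran with Npc1l1 (0.79) and against Rbp2 (−0.95). These values are descriptions over 6 points that share the day 3 shift and 2 nearly equal days. Among 11715 other genes, those most like Slc5a1 were Tlk1, Vdr and Nfkbid (r of 0.999, 0.996 and 0.995), those most like Npc1l1 were Uba7, Hsd17b11 and Glrx (0.999, 0.998 and 0.998), and those most like Fabp1 were Exosc10, Ccnf and Faap24 (0.999, 0.999 and 0.998). For Rbp2 they were Cstf2, Ppig and Ipo7, and for Mttp they were Wwp1, Phf3 and Prkg2, with r between 0.995 and 0.999.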

How the data were processed

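Per the submitters' processing notes, the authors used FastQC, STAR 2.73a and edgeR 3.24.3 with the builds GRCm38 and mm10. The annotation used for counting was not given in the sources used here. Each library has 1 deposited file of raw counts, whole numbers of read pairs for each gene. The column that ignores strand was used (50.1 to 50.6% of strand counts fell in the first strand column). The summary lines were left out of library sizes: unmapped pairs were 10.3 to 11.3%, multimapping 5.96 to 6.31%, on no gene 3.32 to 3.83% and ambiguous 4.35 to 4.54%, leaving 74.5 to 75.6% assigned. Of 54838 gene IDs 54809 matched GENCODE M21 (GRCm38), which gave symbols, positions and exon lengths. Promoters of all 10 members matched RefSeq (GRCm38.p6) by symbol.

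The tests ran in R 4.3.3, with edgeR 4.0.16 (filterByExpr by group, TMM, robust quasi-likelihood test, two-sided, treatment as single term), limma 3.58.1 and DESeq2 1.42.0; tables and figures used Python 3.11.15, scipy 1.17.1 and matplotlib 3.10.9. The SE of an edgeR value is its size divided by the root of F, and adjusted p-values are Benjamini-Hochberg over all genes tested. Day ratios have exact conditional binomial 95% intervals, which cover counting error only. Likeness used log2 CPM with a prior count of 2. Per the labels, libraries with the same replicate number come from the same day and are paired; their deviations from the group means correlated at 0.329, 0.369 and 0.632 on days 1, 2 and 3, against 0.336 and 0.363 between days 1 and 2 and −0.487 to −0.435 between day 3 and the others, so they do not tell days 1 and 2 apart. How separate the cultures were is not said otherwise, so p-values measure the spread between these libraries. Alternatives were the day block, other scalings, tools, filters and thresholds, the columns for either strand, a term for RNA integrity, and leaving out libraries or days. The tests were tested on simulated counts.

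The members and lists were chosen with earlier results of these data known. Named are all members; in each further list, genes past the threshold and the 3 of smallest p whose mean log2 CPM was 1 or more; the 3 most abundant genes of each marker list; and the 3 genes most like each member above 1 CPM. From those the text gives a part, and Abcg5, Abcg8, Apob, Dgat1, Dgat2, Gpat3, Creb3l3, Slc27a2, Apoa1, Sec24d, Hnf4a, Cdx2, Alpi, Apoa4, Fabp6, Ptprc, Fgb, Umod and Slc22a6 were named after their values were seen. Some genes of the lists are not reported here by name.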

Additional observations from a re-analysis of the deposited data

How the results depend on the processing

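Counts without the day block were 0 members higher and 0 lower, 110 and 122 of all genes, and 2 and 1 of the other uptake genes. The replicate block gave 1 and 4 members, 1770 and 1645 genes, and 18 and 21 other uptake genes. DESeq2 gave 1 and 2, 369 and 429, and 6 and 5. RNA integrity as a covariate gave 1 and 2, 1153 and 883, and 12 and 9. DESeq2 with the replicate block gave 2 and 3 members with 1112 and 1162 genes, and limma-voom with the replicate block 2 and 4 with 1771 and 1642; both were chosen after seeing the data. No filter gave 186 and 249 genes and 4 and 3 other uptake genes. A threshold of 0.01 gave 18 and 19 genes and 0 and 0 other uptake genes, and one of 0.1 gave 234 and 248, and 5 and 2. Counts of either strand alone (columns 3 and 4 of the files) each gave 1 other uptake gene higher.

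Leaving out 1 library or 1 day, members higher ranged from 0 to 3 and members lower from 0 to 5, with and without the block. Genes higher ranged from 0 to 2225 and lower from 0 to 2067, and other uptake genes higher from 0 to 19 and lower from 0 to 25.

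The log2 change of 9 members kept its sign in every alternative run. That of Slc15a1 turned from −0.05 to 0.00071 with the replicate block, 0.082 in limma-voom, 0.12 in the counts of column 4 and 0.048 in DESeq2 with the replicate block. Leaving out a library or day it ranged from −0.39 (without day 1) to 0.48 (without replicate 2, with the block), with 0.44 without replicate 2, and 0.37 and 0.022 without its DMSO and its INT-777 library of day 2. The cause was not tested. The count of 5 members that differ between days held in all 4 alternatives. Depth limits Slc15a1 and Slc2a2, at 20 to 107 read pairs per library.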
